A study of Mus musculus with 5 samples.

Results

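The genes of the cornified envelope and the S100A calcium-binding proteins were described in mouse dorsal skin, cell group by cell group. They were taken by name: every gene whose symbol began with Sprr, Lce or S100a, together with Lor, Flg, Flg2, Ivl, Rptn, Hrnr, Tchh, Crnn and Krtdap. That rule found 65 of the 28001 gene identifiers in the whole-skin libraries, under 59 symbols. The Sprr family had 15 identifiers, the Lce family 21 and the S100a family 14, and the single genes had 15, of which 7 were listings of Flg. Of the 65 members, 59 were matched to the gene annotation by identifier, and the 6 that were not were Flg listings with 11 UMIs between them.

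Keratinocytes of the epidermis divide in the basal layer, move outward and die as flattened corneocytes, and during the last steps a shell of cross-linked protein, the cornified envelope, replaces the plasma membrane. Involucrin (Ivl) is laid down as an early scaffold, the small proline-rich proteins (Sprr) act as cross-bridges, and loricrin (Lor) and the late cornified envelope proteins (Lce) are added afterwards, joined by transglutaminases. Filaggrin (Flg), filaggrin 2 (Flg2), hornerin (Hrnr), repetin (Rptn), cornulin (Crnn) and trichohyalin (Tchh) are fused-type S100 proteins, with an S100 domain ahead of long repeats, and Krtdap encodes a small secreted protein of differentiating keratinocytes. The S100a genes encode small calcium-binding dimers that are not restricted to the epidermis, although they lie in the same chromosomal region. In the GRCm38 annotation, 58 of the 59 matched members lay on chromosome 3 between positions 90511034 and 93564643, in the epidermal differentiation complex, and Krtdap alone lay on chromosome 7 (30787896 to 30791097).

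Unsorted back-skin cells came from postnatal day 46 female mice of 2 genotypes, with 2 mutant libraries (Lepr-Cre;mTmG;Smo+/-) and 2 control libraries (Lepr-Cre;mTmG). A further library held sorted GFP-positive cells from Lepr-Cre;mTmG females at day 50. All mice carried a Cre recombinase expressed from Lepr, the leptin receptor gene, and mTmG, a membrane reporter that switches to GFP where Cre has acted, so the groups differed in the Smo allele. The series text also writes the control genotype with "Smo" appended, and how the allele was changed is not given in the sources used here. Libraries of the same genotype are technical replicates by their labels, and the p-values below therefore cover only the spread between preparations, not between animals.

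The whole-skin files held 147245343 to 171197845 UMIs (unique molecular identifiers, each standing for 1 captured RNA molecule) per library and the sorted file held 1138206. After filtering, 8389 and 8663 cells were kept in the mutant libraries, 8097 and 8248 in the control libraries and 432 in the sorted library. Each pair of whole-skin libraries shared 117 to 192 cell barcodes. Cells were clustered without the members among the clustering genes, and clusters were named only from marker lists, as "X-like". 8 of 35 clusters stayed unnamed and held 24.5% and 24.8% of mutant cells and 14.5% and 14.3% of control cells. Smo itself did not separate the genotypes: in fibroblast-like cells it had 46.8 and 39.8 CPM in mutant libraries, against 37.3 and 41.7 CPM in control libraries (CPM, counts scaled to a total of 1000000 UMIs in the same library and cell group). A 3′ count checks the label only if the change alters the 3′ end or the RNA level. Ptch1, a transcriptional target of the Smo pathway, had 102 and 93.8 CPM in mutant fibroblast-like cells, against 30.0 and 28.6 CPM in control ones.

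Promoter sequence is shown for 3 envelope genes that were highest in the late differentiating group, and for the S100a gene that led the follicle bulge. Each line is the 250 bases before the RefSeq transcription start in GRCm38.p6, read 5′ to 3′ on the gene's strand. Capitals mark matches to TGANTCA, the core letters of an AP-1 site, and to TATAAA, the TATA box, each searched on both strands.
Sprr1a, chr3:92485882-92486131, minus strand: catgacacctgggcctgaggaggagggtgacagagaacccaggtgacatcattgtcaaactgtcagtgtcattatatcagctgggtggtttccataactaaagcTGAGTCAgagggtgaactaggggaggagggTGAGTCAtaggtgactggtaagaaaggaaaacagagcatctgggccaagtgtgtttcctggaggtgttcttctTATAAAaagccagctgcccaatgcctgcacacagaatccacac
Krtdap, chr7:30787655-30787904, plus strand: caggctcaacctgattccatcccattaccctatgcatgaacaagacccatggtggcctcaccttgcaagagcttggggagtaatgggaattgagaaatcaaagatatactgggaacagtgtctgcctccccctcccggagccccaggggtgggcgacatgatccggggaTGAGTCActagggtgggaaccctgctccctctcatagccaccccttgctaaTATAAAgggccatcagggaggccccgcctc
Lor, chr3:92083143-92083392, minus strand: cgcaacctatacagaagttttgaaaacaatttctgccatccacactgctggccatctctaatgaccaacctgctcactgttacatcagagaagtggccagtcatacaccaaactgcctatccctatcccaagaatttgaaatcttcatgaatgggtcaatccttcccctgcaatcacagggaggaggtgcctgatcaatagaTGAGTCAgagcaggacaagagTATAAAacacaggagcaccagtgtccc
S100a6, chr3:90612644-90612893, plus strand: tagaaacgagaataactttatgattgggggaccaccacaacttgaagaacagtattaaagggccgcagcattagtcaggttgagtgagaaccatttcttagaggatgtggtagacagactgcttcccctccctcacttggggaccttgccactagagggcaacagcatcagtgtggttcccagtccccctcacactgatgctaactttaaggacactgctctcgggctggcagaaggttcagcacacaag
The Sprr1a window held TGANTCA at 146 and 116 bases before the start and TATAAA at 43 bases before it. Krtdap had 1 match to each, at 81 and 30 bases, and Lor had 1 match to each, at 48 and 27 bases. The S100a6 window held neither motif. Of the 59 symbols, 54 had a RefSeq promoter entry, giving 58 windows. TGANTCA occurred in 16 of 43 windows of envelope members (37.2%): 0 of the 20 Lce windows and 16 of the other 23 held it. It occurred in 2 of 15 windows of S100a members (13.3%), where 6.75% of all 32851 windows in the table held it. TATAAA occurred in 21 of 43 envelope windows (48.8%), 4 of them Lce windows, in 3 of 15 S100a windows and in 12.4% of all windows. These are matches of letters and not measured sites.

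Krtdap, Sprr1a and Ivl stepped up from basal-like to suprabasal-like to late suprabasal-like keratinocytes in every library. Krtdap reached 15943 and 14604 CPM in late suprabasal-like cells of the mutant libraries and 15406 and 16493 CPM in those of the control libraries. In suprabasal-like cells it had 6723 and 6836 CPM in mutant libraries and 6478 and 6483 CPM in control libraries. In basal-like cells Krtdap had 63.4 and 51.3 CPM in mutant libraries and 58.4 and 51.5 CPM in control libraries. The 3 states did not overlap for Krtdap in any library, while the genotypes overlapped in the late and basal states and lay apart by 0.05 on the log2 scale in the suprabasal state.

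**Figure D1:**
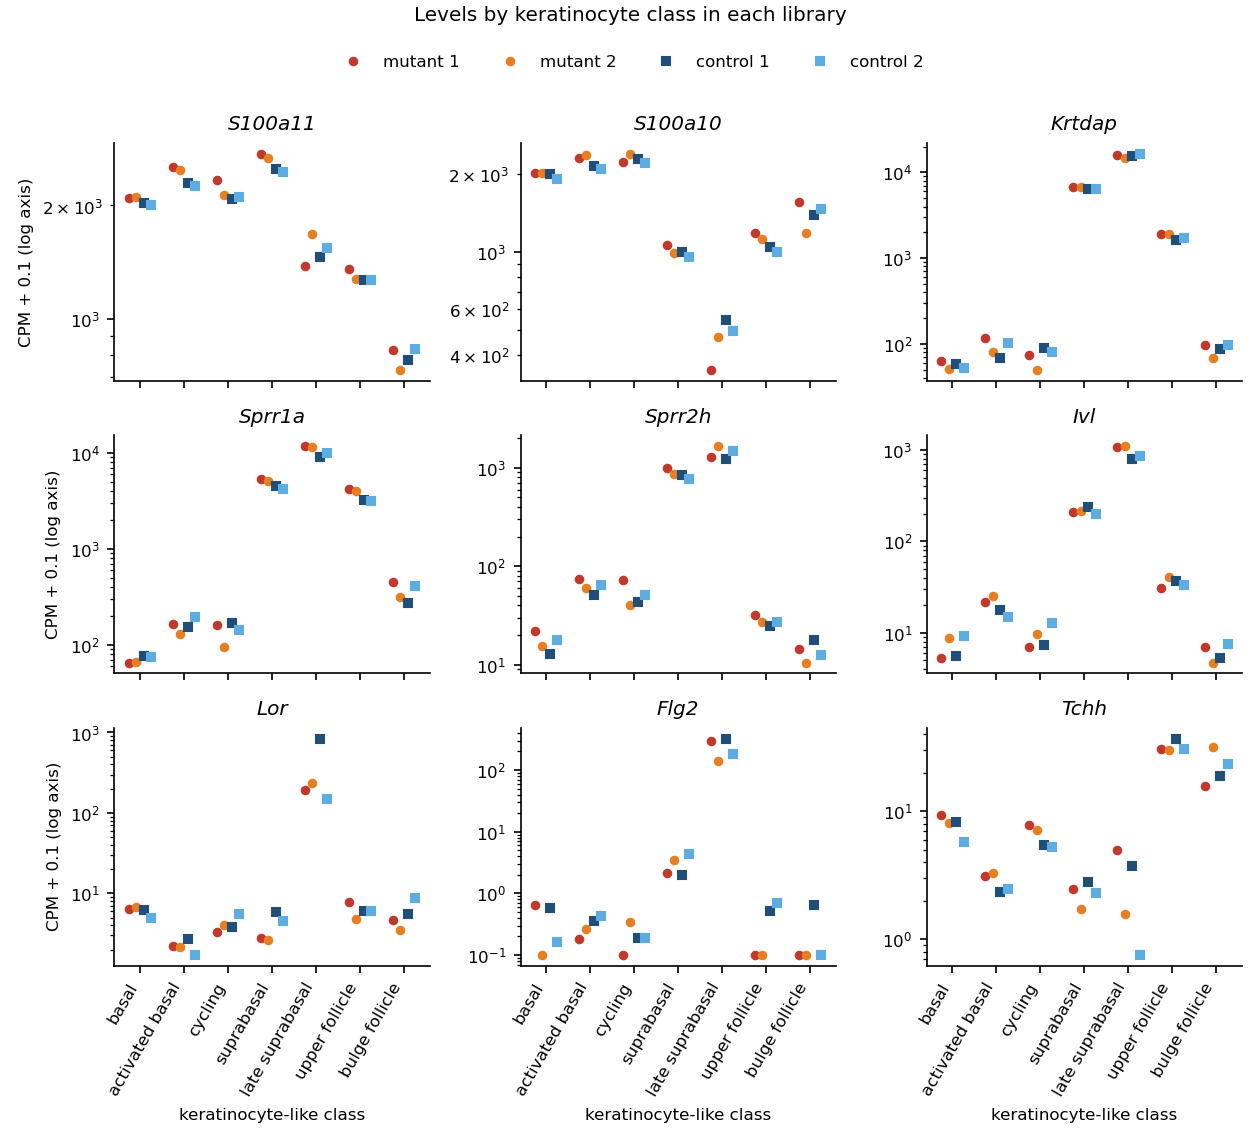
Level of 9 members in 7 keratinocyte-like groups; each point is 1 whole-skin library (mutant left of control), and the vertical axis is CPM + 0.1 on a log scale. Krtdap, Sprr1a and Ivl step up from basal-like to late suprabasal-like cells in every library, whereas Tchh is highest in the follicle groups and S100a11 is high in all of them.

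Involucrin followed the same order at lower levels. Ivl had 1079 and 1105 CPM in late suprabasal-like cells of the mutant libraries, against 794 and 858 CPM in the control libraries. In suprabasal-like cells it had 211 and 215 CPM in mutant libraries and 236 and 201 CPM in control libraries. The genotype groups did not overlap in the late state (log2 fold change 0.44 ± 0.08 SE, edgeR quasi-likelihood adjusted p = 0.0529), as for 43.5% of all genes tested there. They overlapped in the suprabasal state. Within the suprabasal-like group, its 2 clusters differed in mean level: 39.0 CPM of Ivl in cluster 2 and 433 CPM in cluster 8, with 959 CPM in the late suprabasal-like cluster 28.

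Loricrin and the filaggrin-type genes were confined more sharply to the late state. Lor had 190 and 235 CPM in late suprabasal-like cells of the mutant libraries, against 839 and 150 CPM in those of the control libraries. Its mean was 3.85 CPM in suprabasal-like cells and at most 6.05 CPM in any other group. The 4 late values overlapped between genotypes, and few cells carried them: Lor UMIs were found in 17 of 56 and 12 of 54 mutant cells and in 36 of 68 and 40 of 77 control cells. A single cell held 72.9% and 69.6% of Lor UMIs in the mutant libraries, while no single cell of the control libraries held more than 30.7%.

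Filaggrin 2, which takes part in the late barrier, had 299 and 141 CPM in late suprabasal-like cells of the mutant libraries and 323 and 181 CPM in those of the control libraries. Flg, whose product bundles keratin filaments, had 93.7 and 56.3 CPM in mutant and 35.3 and 68.6 CPM in control late suprabasal-like cells. Hrnr had 103 and 35.7 CPM in mutant and 89.2 and 53.6 CPM in control cells of that state. For all 3 genes the genotypes overlapped, and the second-highest group averaged at most 2.87 CPM. Rptn and Crnn had a mean below 2 CPM in every group.

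Trichohyalin, which hardens the inner root sheath and medulla of the hair, did not follow the epidermal order. Tchh had 30.7 and 30.0 CPM in upper follicle-like cells of the mutant libraries and 36.8 and 30.7 CPM in those of the control libraries. In bulge-like cells it had 15.5 and 31.8 CPM in mutant and 18.6 and 23.1 CPM in control libraries. Its mean was 2.67 CPM in late suprabasal-like cells and 2.23 CPM in suprabasal-like cells.

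Among the small proline-rich genes, Sprr1a was the highest. It had 11802 and 11706 CPM in late suprabasal-like cells of the mutant libraries, against 9178 and 10042 CPM in the control libraries. In suprabasal-like cells it had 5398 and 5111 CPM in mutant and 4491 and 4231 CPM in control libraries, and in basal-like cells 65.5 and 67.3 CPM in mutant and 77.1 and 75.3 CPM in control libraries. The upper follicle-like cells were close to the suprabasal-like ones, with 4180 and 3998 CPM in mutant and 3270 and 3196 CPM in control libraries. Set against the differentiation keratin Krt10 in the same cells, Sprr1a stood at 4.95 times the Krt10 level in upper follicle-like cells, 0.841 times in suprabasal-like cells and 0.741 times in late suprabasal-like cells (ratios of means over 4 libraries). The ratio for Krtdap was 2.43 in upper follicle-like cells, 1.16 in suprabasal-like cells and 1.08 in late suprabasal-like cells.

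The Sprr2 genes split within the differentiating states. Sprr2d averaged 40.7 CPM in cluster 2, 276 CPM in cluster 8 and 499 CPM in cluster 28, whereas Sprr2f averaged 464, 1230 and 597 CPM in the same clusters, so Sprr2f was highest before the late state. Sprr2h had 1291 and 1662 CPM in late suprabasal-like cells of the mutant libraries and 1225 and 1475 CPM in the control libraries. Sprr2i, at a mean of 55.3 CPM in late suprabasal-like cells, averaged 2.29 CPM in suprabasal-like cells. Sprr4 was one of the few envelope members highest in upper follicle-like cells, at a mean of 2.54 CPM. Sprr2a1 and Sprr2a2 shared every 50-base window of their last 300 bases with other genes and Sprr2a3 shared 80.1%, so counts within the Sprr2a group cannot be assigned with certainty to 1 gene.

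The Lce genes were low and late. Of 21 identifiers, 14 were highest in late suprabasal-like cells. A mean of 2 CPM in some group was reached by 8, all of them highest in late suprabasal-like cells. Lce3c led with a mean of 37.7 CPM there, ahead of Lce3d, Lce3f at 15.2 CPM, Lce6a at 13.3 CPM and Lce1m at 12.4 CPM. Few cells carried the Lce3c level: 5 of 56 and 7 of 54 mutant cells and 8 of 68 and 6 of 77 control cells. In the second mutant library a single cell held 95.5% of Lce3c UMIs, and a single cell held 100% of Lce3d UMIs. Counts varied widely between libraries: Lce3d in late suprabasal-like cells had 0 and 42.6 CPM in the mutant libraries, against 29.4 and 8.17 CPM in the control libraries. Lce3d shared 42.2% of its 3′ windows with the other Lce3 genes, and Lce3c shared 21.5%. In all, 26 of 51 envelope members reached 2 CPM in some group and 21 of these were highest in late suprabasal-like cells, against 0 of 12 S100a members that reached that level. Each member passed this limit through its own highest group. With no such limit, 14 Lce, 9 of 15 Sprr and 11 of 15 single-gene identifiers were highest in that state, against 0 of 14 S100a identifiers. The late group was named from other cornification genes, so these counts are a description and not a test. Over all 65 members, 2 had no UMI, 28 had fewer than 100 UMIs and 27 stayed below 2 CPM in every group.

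**Figure D2:**
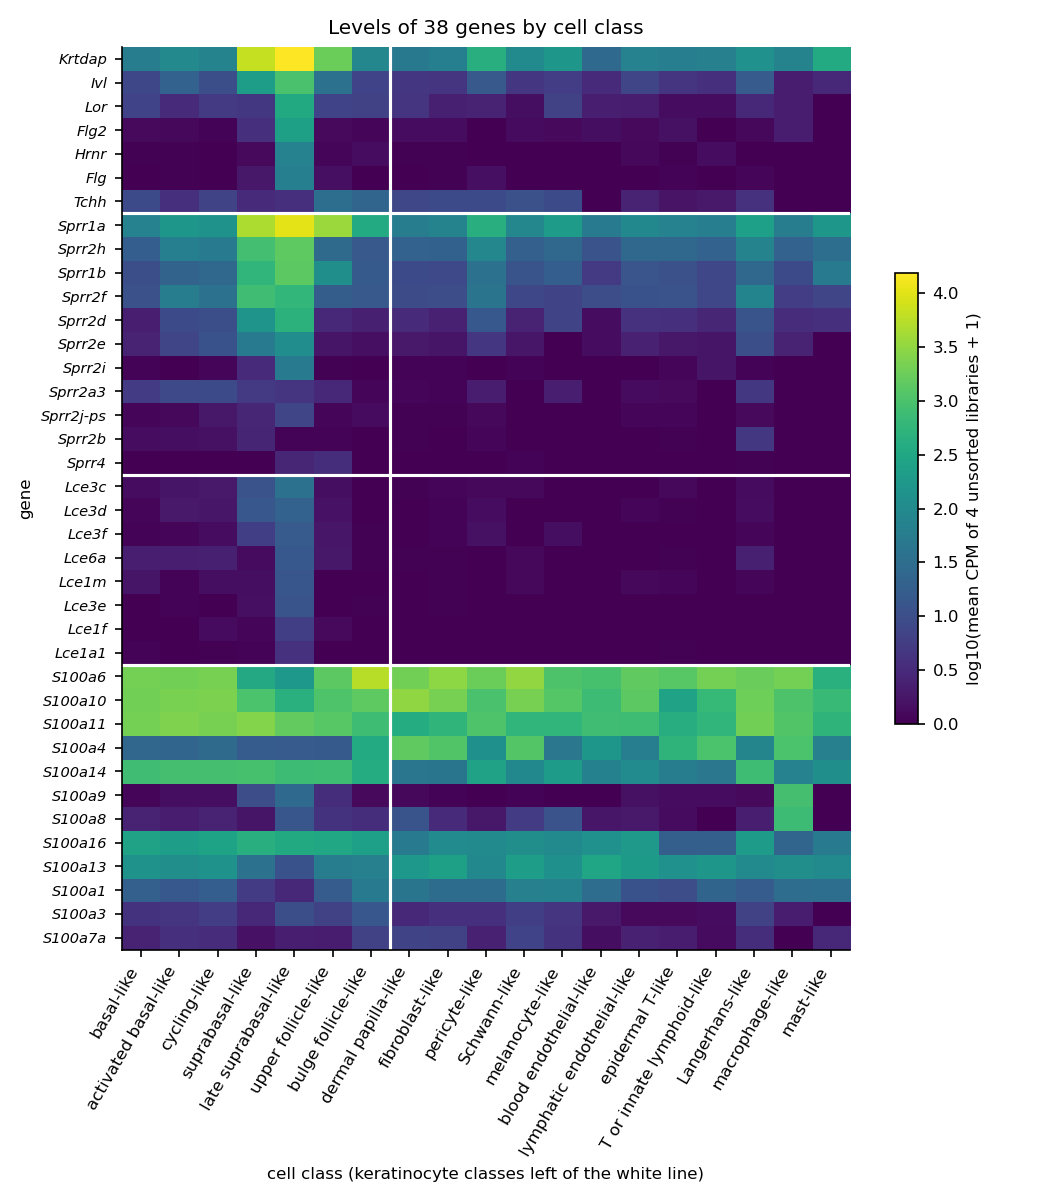
Mean level of the 38 members that reached 2 CPM in some group, by cell group, as log10(mean CPM + 1) over the 4 whole-skin libraries. The envelope genes are brightest in the late suprabasal-like column and the S100a genes are spread over all columns.

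The S100a genes divided between epithelium, mesenchyme and immune cells. S100a11, an annexin A1 partner that is itself cross-linked into envelopes, was highest in suprabasal-like cells, with 2745 and 2668 CPM in mutant and 2507 and 2459 CPM in control libraries. S100a14 was likewise highest in suprabasal-like cells, at 1039 and 979 CPM in mutant and 880 and 860 CPM in control libraries, and had means of 42.6 CPM in papilla-like cells and 41.9 CPM in fibroblast-like cells. S100a16 completed the epithelial set, averaging 418 CPM in suprabasal-like cells.

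S100a6, or calcyclin, ran the other way within the epidermis. It had 5682 and 5848 CPM in bulge-like cells of the mutant libraries and 5302 and 5465 CPM in those of the control libraries, its highest named group. Its mean was 2050 CPM in basal-like cells, 334 CPM in suprabasal-like cells and 174 CPM in late suprabasal-like cells. Outside the epithelium it had 3073 and 3029 CPM in mutant fibroblast-like cells and 2886 and 3145 CPM in control ones. The highest level of all was in an unnamed cluster led by Fmod, Coch and Cck, with 8892 and 9821 CPM in mutant and 9819 and 10278 CPM in control libraries.

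S100a10, the light chain that pairs with annexin A2, was highest in papilla-like cells, with 3064 and 3060 CPM in mutant and 3467 and 2863 CPM in control libraries. S100a4, often used as a fibroblast marker, also peaked there, with 1505 and 1560 CPM in mutant and 1457 and 1474 CPM in control libraries. Fibroblast-like cells had less S100a4, at 777 and 861 CPM in mutant and 1388 and 1435 CPM in control libraries. S100a4 shared 36.3% of its 3′ windows with Gm42674. S100a13 was highest in blood endothelial-like cells and S100a1 in melanocyte-like cells, at means of 289 and 68.1 CPM.

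S100a8 and S100a9, the subunits of calprotectin in neutrophils and monocytes, were highest in macrophage-like cells. S100a8 had 756 and 1703 CPM there in mutant libraries, against 263 and 238 CPM in control libraries, and S100a9 had 760 and 2031 CPM against 454 and 382 CPM. The genotype groups did not overlap, as for 34.2% of all genes tested there, but the adjusted p of S100a8 was 0.209 (edgeR, log2 fold change 2.32). S100a8 UMIs came from 4 of 32 and 8 of 46 mutant cells, against 2 of 30 and 1 of 33 control cells. The summed level of neutrophil markers in these cells was 69.1 and 233 CPM in mutant and 115 and 119 CPM in control libraries, and its part in the difference was not tested.

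**Figure D3:**
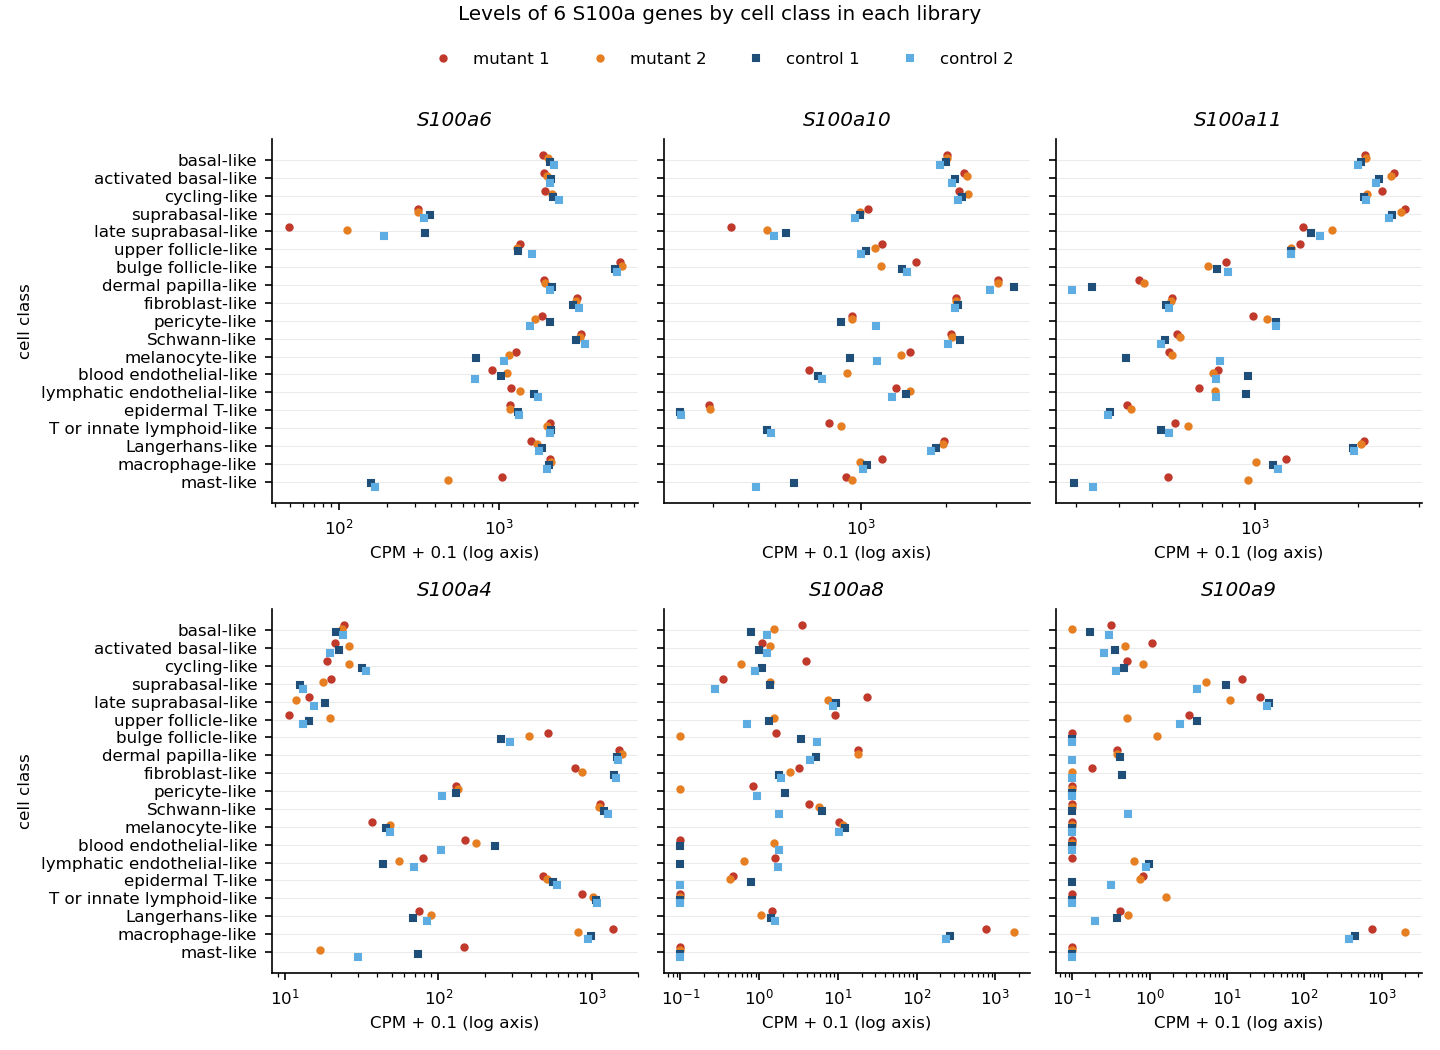
Level of 6 S100a genes across 19 named cell groups; each point is 1 whole-skin library, mutant or control, and the axis is CPM + 0.1 on a log scale. S100a6 peaks in bulge-like cells, S100a10 and S100a4 in papilla-like cells and S100a8 and S100a9 in macrophage-like cells.

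Shares of cells with a UMI were read after each cell had been thinned to 2000 UMIs. Krtdap was detected in 100% of late suprabasal-like cells in all 4 libraries. In suprabasal-like cells its share was 90.8% and 90.0% in mutant and 90.1% and 88.9% in control libraries, and in upper follicle-like cells 66.2% and 61.4% in mutant and 62.5% and 59.8% in control libraries. Papilla-like cells, which should lack Krtdap, gave 8.72% and 10.5% in mutant and 8.18% and 9.26% in control libraries. The share in basal-like cells, 8.98% and 8.41% in mutant and 7.83% and 8.85% in control libraries, overlapped that in papilla-like cells. The source of the UMIs in these 2 groups was not tested.

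Sprr1a was found in 80.5% and 84.1% of upper follicle-like cells of the mutant libraries and 80.4% and 79.9% of those of the control libraries. In bulge-like cells its share was between 21.5% and 27.6% in the 4 libraries. Fibroblast-like cells gave 9.05% and 7.77% in mutant and 9.06% and 9.89% in control libraries. Ivl was found in 60.7% and 66.7% of late suprabasal-like cells of the mutant libraries and 60.3% and 67.1% of those of the control libraries, so the shares overlapped between genotypes while the levels did not. Lor reached only 8.93% and 13.0% of late suprabasal-like cells in mutant libraries, against 23.5% and 17.1% in control libraries. Before thinning, median depth ran from 33725 to 37595 UMIs in late suprabasal-like cells, 20005 to 21455 in suprabasal-like cells, 8952 to 11408 in fibroblast-like cells and 4610 to 5827 in papilla-like cells.

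**Figure D4:**
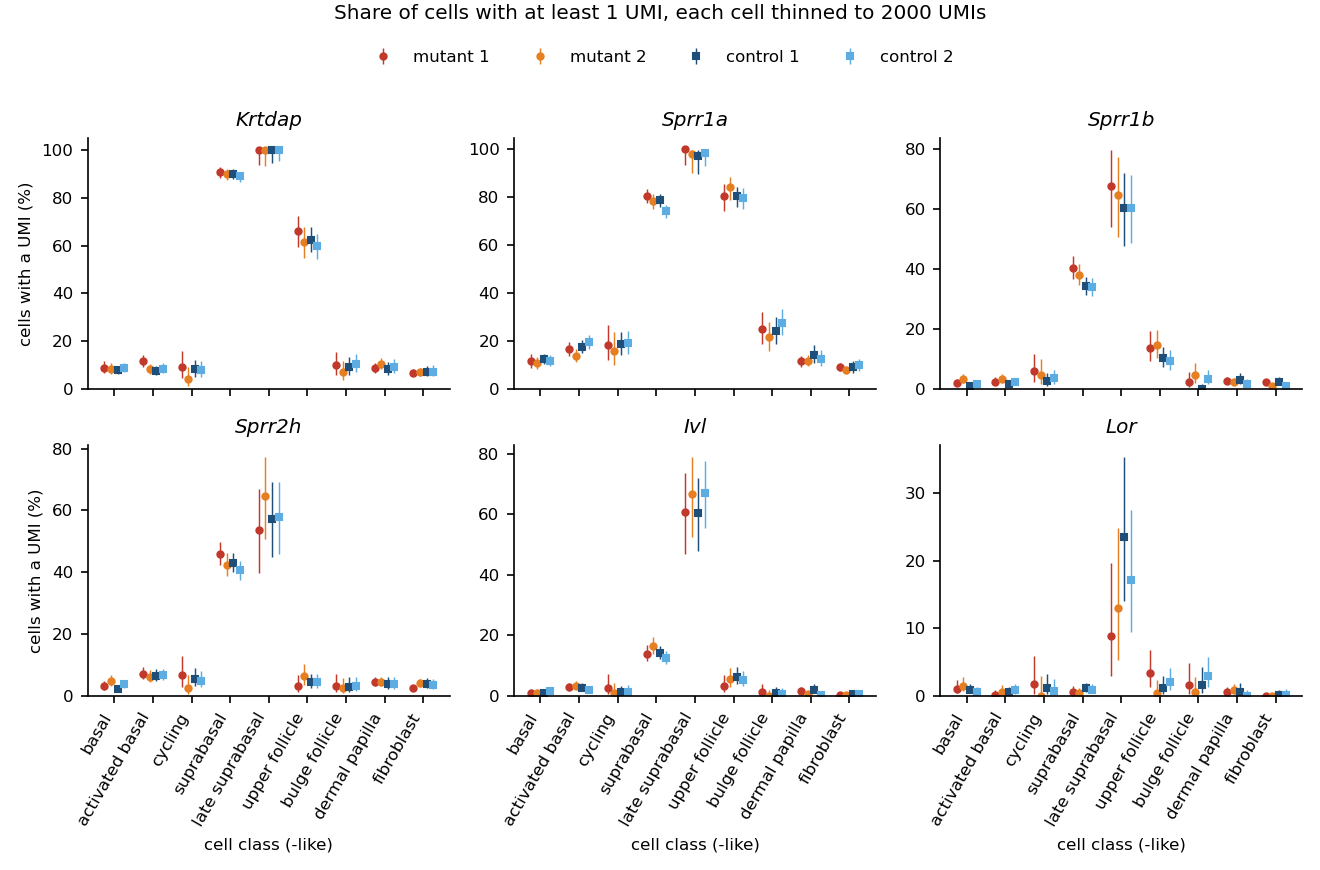
Percent of cells with at least 1 UMI of 6 envelope members after thinning to 2000 UMIs, by cell group and library (mutant left of control), with 95% Clopper-Pearson intervals that cover counting error only. Krtdap fills the late suprabasal-like group, Lor reaches at most 23.5% of it, and fibroblast-like and papilla-like cells are drawn for comparison.

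Few members differed by genotype in the keratinocyte groups. A member was called when its Benjamini-Hochberg adjusted p over all genes tested was under 0.05 and its log2 fold change, mutant over control, was at least 1 in size. In suprabasal-like cells 33 members were tested and 1 was called higher, where 1.91% of all genes tested were called and 1.63% were called higher. In upper follicle-like cells 0 of 21 were called by edgeR (0.431% of all genes), 7 had an unadjusted p under 0.05 and DESeq2 called 0. In late suprabasal-like cells 0 of 33 were called by edgeR (0.351% of all genes), 8 had an unadjusted p under 0.05 and DESeq2 called 0. The shares in brackets are for the call rule. The share of all genes with an unadjusted p under 0.05 is not given, so those counts are not read as a result. In basal-like cells 1 of 23 was higher and 1 lower (1.19% of all genes, 0.971% higher and 0.222% lower).

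The called gene of suprabasal-like cells was Lce3d, a late envelope gene. It had 17.3 and 23.9 CPM in mutant libraries, against 2.79 and 5.98 CPM in control libraries (log2 fold change 2.21 ± 0.23 SE, edgeR adjusted p = 4.16e-05). The genotypes did not overlap for it, as for 51.9% of all genes tested there. Its UMIs came from few cells: 18 of 693 and 16 of 729 mutant cells and 14 of 1007 and 15 of 1008 control cells held any. In each mutant library 3 cells held at least 50% of the UMIs, and in the control libraries 3 and 1 cells did. The call was lost within cluster 8 alone (adjusted p = 0.171).

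With no fold minimum, 9 members of suprabasal-like cells, Lce3d among them, were higher in mutant libraries and 3 lower, where 9.61% of all genes passed the adjusted p. The 11 besides Lce3d differed by -0.99 to 0.54 on the log2 scale. Sprr1a differed by 0.25 ± 0.03 (log2, SE; edgeR adjusted p = 0.000217), Sprr1b, its close relative, by 0.32 ± 0.05 (adjusted p = 0.000618) and S100a14 by 0.20 ± 0.03 (adjusted p = 0.00169). Sprr2f differed by -0.24 ± 0.05 (adjusted p = 0.00753), with 776 and 717 CPM in mutant and 924 and 815 CPM in control libraries. Lor stood just short of the fold minimum at -0.99 ± 0.20 (adjusted p = 0.00656), with 2.68 and 2.51 CPM in mutant and 5.81 and 4.38 CPM in control libraries. In cluster 8 alone Lor was called lower, with 1.26 and 2.23 CPM in mutant and 5.56 and 4.31 CPM in control libraries (-1.54 ± 0.34, edgeR adjusted p = 0.0317). In cluster 2 alone it differed by -0.62 (edgeR adjusted p = 0.193). Krtdap, the most abundant member of suprabasal-like cells, differed by 0.05 and did not pass. The mean share of thinned suprabasal-like cells with an Sprr1b UMI was 39.3% in mutant and 34.1% in control libraries, 5.20 percentage points apart (two-sided exact permutation p = 0.333, the smallest that 2 against 2 libraries can give). That of Ivl was 15.1% in mutant and 13.4% in control libraries (exact permutation p = 0.667), and that of Lce3d was 1.23% and 0.503% (exact permutation p = 0.333). The summed level of fibroblast markers in these cells was 488 and 272 CPM in mutant and 126 and 121 CPM in control libraries, with 8 of 10 higher, and that of erythroid markers was 402 and 885 CPM against 32.2 and 170 CPM, with 4 of 4 higher; their part in the members' differences was not tested.

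**Figure D5:**
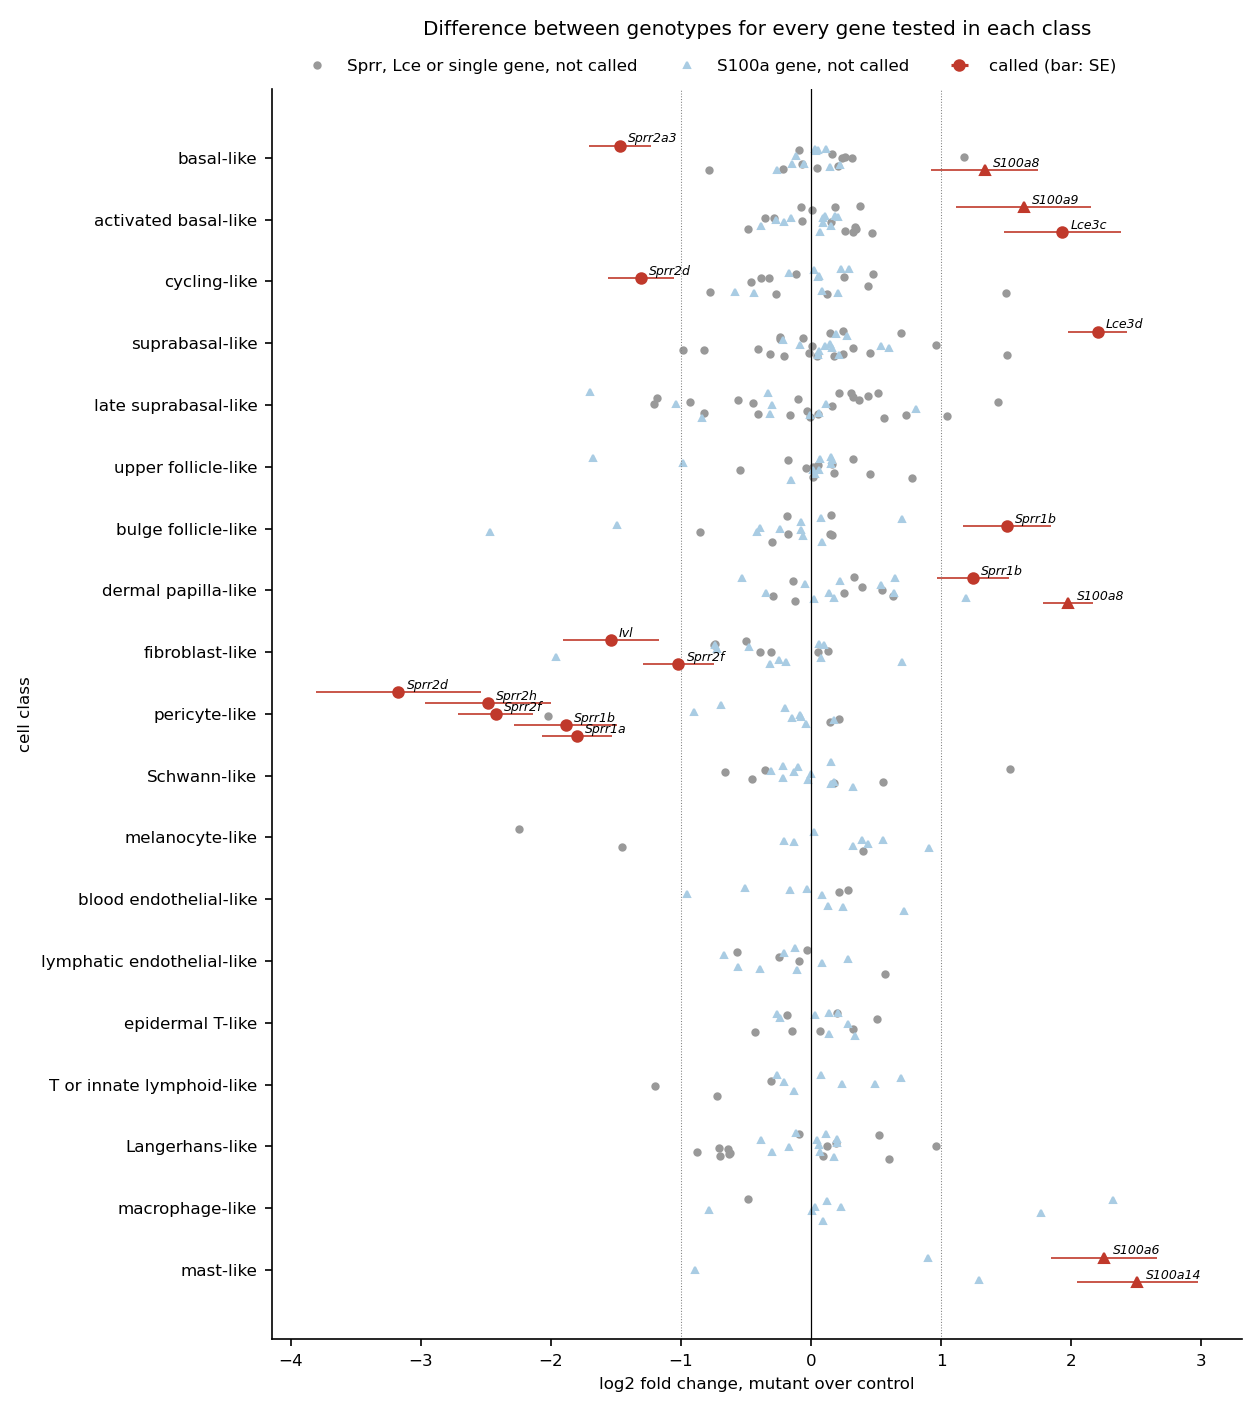
Log2 fold change, mutant over control, of every member tested in each cell group. Members not called are grey circles (Sprr, Lce and single genes) or light blue triangles (S100a genes). Members called are red with SE bars, as circles or, for S100a genes, triangles. Of the 18 called points, 9 lie on the higher and 9 on the lower side, and 5 of the lower ones are Sprr genes in pericyte-like cells.

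Upper follicle-like cells shared the Sprr1 differences. Sprr1a had 4180 and 3998 CPM in mutant and 3270 and 3196 CPM in control libraries (0.32 ± 0.05, edgeR adjusted p = 0.0108), and Sprr1b had 138 and 165 CPM against 87.0 and 88.1 CPM (0.78 ± 0.09, adjusted p = 0.00285). Neither pair overlapped, as for 41.8% of all genes tested there, and both stood below the fold minimum. The adjusted p alone was passed by 0.954% of all genes there. In bulge-like cells Sprr1b was the 1 member called of 19 (1.13% of all genes, 0.580% higher), with 16.3 and 26.4 CPM in mutant and 3.82 and 10.6 CPM in control libraries (1.51 ± 0.34, adjusted p = 0.0149). Without the first control library its difference was 0.98, below the fold minimum. DESeq2 called 0 members in bulge-like cells. Bulge-like cells of the mutant libraries also held more S100a4, at 518 and 387 CPM against 254 and 292 CPM (0.70 ± 0.12, adjusted p = 0.00246). There the summed fibroblast markers were 302 and 290 CPM in mutant and 135 and 193 CPM in control libraries, and their part in the difference was not tested.

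In basal-like cells Sprr2a3 fell to 2.07 and 2.85 CPM in mutant libraries, against 5.88 and 7.56 CPM in control libraries (-1.47 ± 0.24, edgeR adjusted p = 0.000551). That call was lost with the members kept among the clustering genes or with cells of up to 20% mitochondrial UMIs. DESeq2 called 0 members in basal-like cells. S100a8 had 3.37 and 1.42 CPM in mutant and 0.684 and 1.17 CPM in control basal-like cells (1.34 ± 0.41, adjusted p = 0.0478), from 10 to 31 UMIs per library. The S100a8 call was lost without the first mutant or the first control library, with no filter on low counts, with members kept among the clustering genes and without barcodes shared between libraries. In activated basal-like cells, basal cells with growth factor and cytokine genes, 2 of 27 members were called higher (2.41% of all genes, 2.04% higher), Lce3c and S100a9, both below 1.5 CPM in every library, and both calls were lost without the first mutant library and with no filter on low counts, that of S100a9 also without the second control library. DESeq2 called 0 members in activated basal-like cells. Ivl there had 21.4 and 24.9 CPM in mutant and 17.6 and 14.7 CPM in control libraries (0.47 ± 0.09, edgeR adjusted p = 0.00169). In cycling keratinocyte-like cells 1 of 22 members was called (0.331% of all genes, 0.107% lower): Sprr2d fell to 4.25 and 6.57 CPM in mutant libraries, against 15.2 and 10.9 CPM in control libraries (-1.31 ± 0.26, adjusted p = 0.0332). It was not called without the first control library, with DESeq2, at Leiden resolution 0.6, with members kept or without shared barcodes, and with cells of up to 20% mitochondrial UMIs its direction turned (0.94).

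Papilla-like cells had 2 of 21 members called higher, where 4.95% of all genes were called and 3.21% called higher. S100a8 had 17.7 and 17.9 CPM in mutant libraries, against 5.13 and 4.34 CPM in control libraries (1.98 ± 0.19, edgeR adjusted p = 3.01e-07). It is the 1 called member that stayed called under every alternative run, with differences from 1.24 to 2.85. After thinning, 3.54% and 4.53% of mutant papilla-like cells and 0.00% and 0.926% of control ones had an S100a8 UMI (0 of 391 cells, which allows a share of up to 0.767% by a floor of 3 counts), where fibroblast-like cells gave 0.509% and 0.706% in mutant and 0.336% and 0.366% in control libraries. S100a9 was nearly absent from the same cells, with 2 and 2 UMIs in mutant and 2 and 0 UMIs in control libraries beside 126 and 126 and 32 and 26 UMIs of S100a8. The summed neutrophil markers were 31.0 and 35.2 CPM in mutant and 47.3 and 42.6 CPM in control papilla-like cells, and their part in the S100a8 difference was not tested. Sprr1b had 7.88 and 13.9 CPM in mutant and 5.77 and 3.84 CPM in control libraries (1.25 ± 0.28, adjusted p = 0.00271), and was not called without the second mutant or the second control library or with no filter on low counts. S100a11, without reaching the fold minimum, had 458 and 472 CPM against 333 and 292 CPM (0.65 ± 0.07, adjusted p = 1.5e-06). Fibroblast markers summed to 2335 and 2338 CPM in mutant and 1032 and 1087 CPM in control papilla-like cells, and their part in these differences was not tested.

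Fibroblast-like cells had 2 of 20 members called lower, where 2.42% of all genes were called and 0.712% called lower. Ivl had 1.62 and 1.69 CPM in mutant and 6.95 and 3.06 CPM in control libraries (-1.54 ± 0.37, edgeR adjusted p = 0.0106), and Sprr2f had 5.52 and 5.90 CPM against 16.4 and 7.55 CPM (-1.02 ± 0.27, adjusted p = 0.0195). Neither was called without the first control library, with doublets kept or with DESeq2, which called 0 members there. Sprr2f was also not called without the first mutant library, with a replicate block, at Leiden resolution 0.6 or with members kept. Nor was Sprr2f called without cluster 23 (280 and 242 mutant cells and 0 control cells) or in cluster 5 alone. Its difference ran from -1.70 to -0.11 over the alternatives. After thinning, 0.203% and 0.404% of mutant and 0.503% and 0.549% of control fibroblast-like cells held an Ivl UMI, and the source of these UMIs was not tested. S100a4, abundant in these cells, had 777 and 861 CPM in mutant and 1388 and 1435 CPM in control libraries (-0.73 ± 0.05, adjusted p = 5.27e-07), below the fold minimum. Without cluster 23, S100a4 in fibroblast-like cells differed by -0.31. It differed by -0.21 in cluster 5 alone (edgeR adjusted p = 0.0972) and by -0.45 in cluster 15 alone (adjusted p = 0.00171). S100a16 moved likewise, with 74.2 and 76.2 CPM in mutant and 126 and 136 CPM in control libraries (-0.74 ± 0.07, adjusted p = 6.24e-06). S100a16 in fibroblast-like cells differed by -0.48 without cluster 23, by -0.33 in cluster 5 alone (adjusted p = 0.158) and by -0.78 in cluster 15 alone (adjusted p = 0.000161).

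Pericyte-like cells had the most members called, 5 of 16 lower and none higher, where 1.29% of all genes were called and 0.878% called lower. All 5 were Sprr genes: Sprr1a, Sprr1b, Sprr2d, Sprr2f and Sprr2h. Sprr1a had 224 and 155 CPM in mutant and 872 and 457 CPM in control libraries (-1.80 ± 0.27, edgeR adjusted p = 0.0131). A single cell held 51.5% and 34.9% of its UMIs in mutant and 34.9% and 56.9% in control libraries. Any Sprr1a UMI was found in 50 of 176 and 56 of 180 mutant cells and in 34 of 117 and 31 of 120 control cells. Sprr2f had 9.61 and 14.7 CPM in mutant and 77.2 and 55.9 CPM in control libraries (-2.43 ± 0.29, adjusted p = 0.00664). The other 3 differed by -1.89 to -3.17. Markers of suprabasal keratinocytes moved with them: 7 of 9 tested were lower, with a summed 445 and 1111 CPM in mutant and 3020 and 3074 CPM in control pericyte-like cells. Pericyte markers summed to 3012 and 2591 CPM in mutant and 3169 and 3165 CPM in control libraries. The part of keratinocyte RNA in the Sprr differences was not tested. All 5 calls were lost with cells of up to 20% mitochondrial UMIs. The Sprr2d call was also lost without the second control library. DESeq2 called 3 members in these cells, and Sprr2h was not among them.

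Mast-like cells had 2 of 5 members called higher, where 2.13% of all genes were called and 1.96% called higher. S100a6 had 1049 and 479 CPM in mutant and 158 and 168 CPM in control libraries (2.26 ± 0.41, edgeR adjusted p = 0.0214), and S100a14 had 205 and 202 CPM against 42.2 and 29.7 CPM (2.51 ± 0.46, adjusted p = 0.0214). The counts were small, 25 and 24 UMIs of S100a14 in mutant and 4 and 3 in control libraries. Both calls were lost with no filter on low counts and with a replicate block. DESeq2 called 1 member in mast-like cells. Suprabasal markers summed to 492 and 3489 CPM in these cells in mutant and 317 and 178 CPM in control libraries, and their part was not tested. In Langerhans-like (1.20% of all genes), epidermal T-like (2.11%), Schwann-like (0.137%), T or innate lymphoid-like (0.357%), blood endothelial-like (0.382%), lymphatic endothelial-like (0.293%), macrophage-like (0.00%) and melanocyte-like cells (0.155%), edgeR called no member, while 2 to 10 members per group had an unadjusted p under 0.05 and DESeq2 called 2 in macrophage-like cells (S100a8 and S100a9) and none in the others. Those shares in brackets are for the call rule, and none is given for the unadjusted p, so its counts are not read as a result. Over 19 groups, 349 pairs of group and member were tested, 9 were called higher and 9 lower, and 13 members were called in at least 1 group.

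Few other genes of cornification were called in the keratinocyte groups. Of 20 listed enzymes and barrier lipid genes, 12 to 20 were tested in each of the 7 groups, and 1 was called, in bulge-like cells (1.13% of all genes there). It was Spink5, a protease inhibitor of the outer epidermis, with 96.6 and 41.0 CPM in mutant and 14.5 and 34.4 CPM in control libraries (1.44 ± 0.32, edgeR adjusted p = 0.0145). The Spink5 call was lost without the first mutant library (0.70) or the first control library (0.97), with DESeq2 and with doublets kept. Of 14 listed differentiation keratins and desmosome genes, 11 to 14 were tested, and 1 was called, Krt1, also in bulge-like cells, with 7.20 and 4.21 CPM in mutant and 8.47 and 48.1 CPM in control libraries (-2.35 ± 0.60, adjusted p = 0.0297). That call rested on the second control library: without it Krt1 differed by -0.59 (adjusted p = 0.574), and the call was also lost with cells of up to 20% mitochondrial UMIs. Of 12 listed immediate early and heat shock genes 1 was called, in late suprabasal-like cells (0.351% of all genes there): Atf3, an immediate early gene, fell to 150 and 125 CPM in late suprabasal-like cells of mutant libraries, against 342 and 321 CPM in control libraries (-1.24 ± 0.11, adjusted p = 0.00521). The Atf3 call was lost without the first mutant or the first control library, with no filter on low counts, with members kept and at Leiden resolutions 0.6 and 1.4, where it differed by -0.49 and -0.51. The 20 listed regulators of the complex, Klf4, Grhl3 and Zfp750 among them, had median differences between -0.18 and 0.02 over the 7 keratinocyte groups, and edgeR made no call among them.

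Envelope members held 3.34% and 3.26% of UMIs in late suprabasal-like cells of the mutant libraries and 3.03% and 3.24% in those of the control libraries. In upper follicle-like cells they held 0.638% and 0.620% against 0.510% and 0.514%. S100a members held 0.934% and 0.884% of UMIs in bulge-like cells of the mutant libraries and 0.851% and 0.888% in those of the control libraries.

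In the sorted GFP-positive library the S100a genes dominated. Of the 59 members listed in its file, 24 had a UMI and 19 had more than 3. Members held 0.667% of UMIs, of which S100a genes made 0.652 percentage points. S100a6 had 3980 CPM (95% exact Poisson interval 3864 to 4098, counting error only) and S100a4 had 989 CPM (931 to 1049), while S100a10 had 500 CPM and S100a11 had 478 CPM. Krtdap had 47.4 CPM and Lor 14.3 CPM (8.18 to 23.2), where 3 UMIs correspond to 2.68 CPM. Of the 432 cells, 12 were basal keratinocyte-like, and they held 25 of the 27 UMIs of Sprr2a1 and 21 of the 22 UMIs of Sprr2a3. The sorted library was made with an older chemistry and at another age, so no comparison with the whole-skin libraries was made.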

How the data were processed

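Single-cell libraries of mouse dorsal skin were made with 10x 3′ chemistry (v3 for whole skin, v2 for sorted cells), per the labels' protocols. The submitters' processing notes name the genome builds GRCm38 and mm10 and, with no step given, the tools Scanpy 1.6.0, Cell Ranger 3.1.0 and 2.1.1, and Seurat 3.2.2. The deposited matrices held whole-number UMI counts per gene and cell, as the authors made them. Genes and promoters were matched to GENCODE M21 and RefSeq tables of GRCm38.

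Cells with at least 500 genes (300 in the sorted library), at most 8000 genes and at most 10% mitochondrial UMIs were kept, and doublets called by scrublet (152 to 181 per whole-skin library, 0 in the sorted one) were removed. Clustering (scanpy 1.11.5, 2000 variable genes without the members, 40 principal components, 15 neighbours, Leiden resolution 1) gave 35 clusters. The limits used for naming were chosen after looking at the clusters, so rebuilt names may differ from the study's.

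Counts were summed per library and named class with at least 20 cells in every whole-skin library and tested with edgeR 4.0.16 (TMM, filterByExpr, quasi-likelihood, Benjamini-Hochberg over all genes tested) in R 4.3.3; calls needed an adjusted p under 0.05 and a log2 fold change of at least 1 in size. DESeq2 1.42.0 was an alternative. The fit was tested on counts simulated at the size of the suprabasal-like class, with a low fixed spread between libraries. That setting does not cover the small classes or genes whose UMIs came from few cells. Shares of cells were compared with two-sided exact permutation tests, which cannot go below p = 0.333 with 2 against 2 libraries. Intervals are exact and, since UMIs of 1 cell are not independent samples, cover counting error only. Named genes were the single genes, the 3 highest members of each class and the called members, up to 6 in each direction, with others added to describe families. Members, lists and tests were chosen with earlier results of these data known. The whole-skin libraries share replicate numbers but not animals by their labels: deviations of same-numbered mutant and control libraries correlated at -0.097 to 0.122.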

Additional observations from a re-analysis of the deposited data

Results flagged for a closer look

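Sprr1b, the small proline-rich cross-bridge gene, was singled out because its difference between genotypes ran in opposite directions in different cell groups, with every library of each group on its side. Mutant over control, it was 1.51 in bulge-like cells and 1.25 in papilla-like cells, against -1.89 in pericyte-like cells (log2). The genotypes did not overlap for 52.1% of all genes tested in bulge-like, 62.7% in papilla-like and 47.1% in pericyte-like cells. The difference between these groups was not tested. The bulge-like call was lost without the first control library and the pericyte-like call with cells of up to 20% mitochondrial UMIs. That in papilla-like cells was lost without the second mutant or the second control library or with no filter on low counts. Sprr1b averaged 6.68 CPM in T or innate lymphoid-like, 7.66 CPM in macrophage-like and 4.10 CPM in blood endothelial-like cells, within the range of the papilla-like libraries. Melanocyte-like and mast-like cells averaged more, at 16.8 and 51.1 CPM. In pericyte-like cells the markers of suprabasal keratinocytes moved with Sprr1b, and their part was not tested. The sorted GFP-positive library, which enters no comparison, held a signal of these genes: members made up 0.667% of its UMIs, most of it S100a6 and S100a4.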

How the results depend on the processing

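Counts of called members were small and moved with the settings. In basal-like cells 2 members were called, and 5 with no fold minimum, 0 with DESeq2, with members kept among the clustering genes or at most 20% mitochondrial UMIs, 1 with no filter on low counts, at Leiden resolution 0.6 or without shared barcodes, and 1 (without the first mutant library) to 3 (without the second) without 1 library. In suprabasal-like cells 1 was called, and 12 with no fold minimum, 2 at Leiden resolution 1.4, with doublets kept, at 20% mitochondrial UMIs, without shared barcodes or in cluster 2 alone, and 3 to 5 without 1 library. In upper follicle-like cells 0 were called, and 2 with no fold minimum, 3 with no filter on low counts, 1 with doublets kept and 0 to 3 without 1 library. In the other classes 15 were called, and 45 with no fold minimum, 8 with DESeq2 and 21 to 27 without 1 library. With no fold minimum, 9.48% of all genes passed in basal-like, 9.61% in suprabasal-like and 0.954% in upper follicle-like cells. In the other classes that share ran from 0.00% in macrophage-like to 24.3% in papilla-like cells. The 8 calls with DESeq2 included 2 in macrophage-like cells, where edgeR called none. Shares over all genes are not given for the other settings. Why the counts moved was not tested. The replicate numbers do not pair libraries; with a replicate block 3 members were called in suprabasal-like cells, 0 in upper follicle-like cells and 22 in the other classes.

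Of 64 pairs of member and class with an adjusted p under 0.05, 18 were called. Over 249 alternatives of these 18, 204 kept the call and 45 did not. S100a8 in papilla-like cells was the 1 pair called under every alternative. Here and below, only alternatives that gave the pair an adjusted p were counted, so DESeq2 fits without one are left out. DESeq2 called 0 members in basal-like, activated basal-like, bulge-like, cycling keratinocyte-like and fibroblast-like cells. Over 694 alternatives of the 46 pairs not called, 14 gave a call. The direction turned in 6 of the 943 alternatives: S100a13 in activated basal keratinocyte-like cells (-0.038) and S100a16 in activated basal keratinocyte-like cells (-0.060) at Leiden resolution 0.6, Sprr1a in basal keratinocyte-like cells (0.18) with members kept, Sprr2d in cycling keratinocyte-like cells (0.94) at 20% mitochondrial UMIs, Sprr1a in fibroblast-like cells (0.53) in cluster 5 alone, and S100a10 in T or innate lymphoid-like cells (-0.0084) with doublets kept. The share of suprabasal-like cells with Sprr1b was higher in mutant libraries by 5.20 percentage points, and by 7.64 without thinning, 6.75 at Leiden resolution 0.6 and 6.58 at 1.4. That of Ivl was higher by 1.77 points, and -0.336 thinned to 1000 UMIs. All 5 pericyte-like calls were lost at 20% mitochondrial UMIs. The late suprabasal-like class was not formed with doublets kept or at 20% mitochondrial UMIs, so it has no value there. The clusters taken alone and the removal of shared barcodes, and all alternatives for Spink5, Krt1 and Atf3, were chosen after seeing the data. Of the 65 members, 28 had fewer than 100 UMIs, 15 of them among the 21 Lce identifiers.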

Other observations

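An unnamed cluster led by Hhip, Wif1, Wnt5a and Ptch1 held 429 and 460 cells of the mutant libraries and 2 and 5 cells of the control libraries, too few control cells for a comparison. In the mutant libraries S100a10 had 2734 and 2564 CPM there and S100a8 had 9.69 and 17.2 CPM.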
